A study of Mus musculus with 2 samples.

Results

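General capillary endothelial cells line the exchange vessels of the lung alveolus, and 765 of the 3410 cells kept from 2 single-cell libraries of mouse lung met the rule for them, 165 of 1423 niche cells and 600 of 1987 distal cells. Cells were kept with 500 or more genes and no more than 10% of transcripts from mitochondria. A member held at least 3 transcript molecules (unique molecular identifiers, UMIs) of the endothelial genes Pecam1, Cdh5, Cldn5, Egfl7 and Ramp2, more of these than of the mesenchymal genes Col1a1, Col1a2, Col3a1, Mfap4 and Bgn, and less than 5% of its UMIs from Sftpc. It held at least 2 UMIs of Gpihbp1, Kit, Aplnr and Sema3c together. It held fewer than 3 of Car4 and Ednrb, fewer than 2 of Vwf, fewer than 3 of the arterial genes Gja5, Efnb2, Esm1 and Cxcr4, and fewer than 3 of the interferon-induced genes Serpina3f, Serpina3g, Il18bp and Ubd. The members were thus chosen by measured UMIs of these genes, whose levels are given only as a description.

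The alveolar capillary bed holds at least a pair of endothelial cell kinds. General capillary cells carry lipoprotein lipase on the vessel wall through GPIHBP1, answer to apelin and Kit ligand through APLNR and KIT, and are known as a source of new capillary cells after injury. The other kind, marked by Car4 and Ednrb, is the wide, thin cell that lies against the alveolar surface and makes apelin.

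Both libraries were made from lung cells without CD45, the surface protein of leukocytes, collected by flow cytometry 7 days after Labelling-4T1 cells were injected into a vein. The 4T1 line comes from a mammary tumour of a mouse and grows in the lung after injection. The niche library holds cells labelled as the metastatic niche and the distal library cells labelled as distal lung. The labels do not state how the fractions were gated, whether injected cells were removed, how many animals were pooled, or their strain, sex or age. With 1 library per group no p-value was computed, and all intervals are exact 95% intervals for counting error only.

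The niche members gave 364577 UMIs (median 1996 per cell, 1324 to 5342) and the distal members 999654 (median 1431, 855 to 5008), with a median of 1098 and 878.5 genes. Their median mitochondrial share was 3.27% and 2.40%, and their median share of Malat1, a nuclear RNA, was 3.03% and 4.25%. The libraries shared 7 cell barcodes, 1 of them between members. Levels below are in CPM, the usual scaled count unit, with the UMIs of a gene summed over cells and set relative to the summed UMIs of the 10198 genes listed in both tables.

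The marker genes that chose the cells were seen together in most of them. Of Gpihbp1, Kit, Aplnr and Sema3c, 3 were detected in 68 niche and 240 distal members and all 4 in 35 and 108. The sum of these UMIs had a median of 9 in niche members (2 to 29) and 8 in distal members (2 to 43). At the lower edge, 8 niche and 33 distal members held exactly 2 UMIs, and 12 niche and 22 distal endothelial cells stayed outside with 1. At the edge toward the Car4 Ednrb cells, 19 niche and 57 distal members held 2 UMIs of Car4 and Ednrb, and 13 niche and 19 distal cells stayed outside with 3.

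Of 9 capillary marker genes outside the rule, 5 were at least 2-fold higher than in Car4 Ednrb cells in each library (Plvap, Cd93, Tek, Hmcn1 and Ptprb) and Sept4 was lower. Over all measured genes 4.96% were higher among niche cells and 5.76% among distal cells. Plvap, which forms the diaphragms of endothelial fenestrae and caveolae, was at 1952 CPM in niche members and 2419 in distal ones, against 528 and 498 in Car4 Ednrb cells. Cd93 stood at 679 and 765 against 236 and 185, and the angiopoietin receptor gene Tek at 378 and 495 against 125 and 135. Hmcn1, an extracellular matrix gene, stood at 348 and 523 against 68.4 and 82.1. Sept4 stood at 317 and 365 against 1387 and 1445. Hilpda, which makes a lipid droplet protein, stood at 914 and 1192 in the members and 566 and 789 in Car4 Ednrb cells, and at 1131 and 1727 in cells with arterial genes. Plvap, Ptprb and Tek were also higher in the arterial-gene cells than in the members, so these genes set the members apart from the Car4 Ednrb cells and not from every endothelial set.

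**Figure D1:**
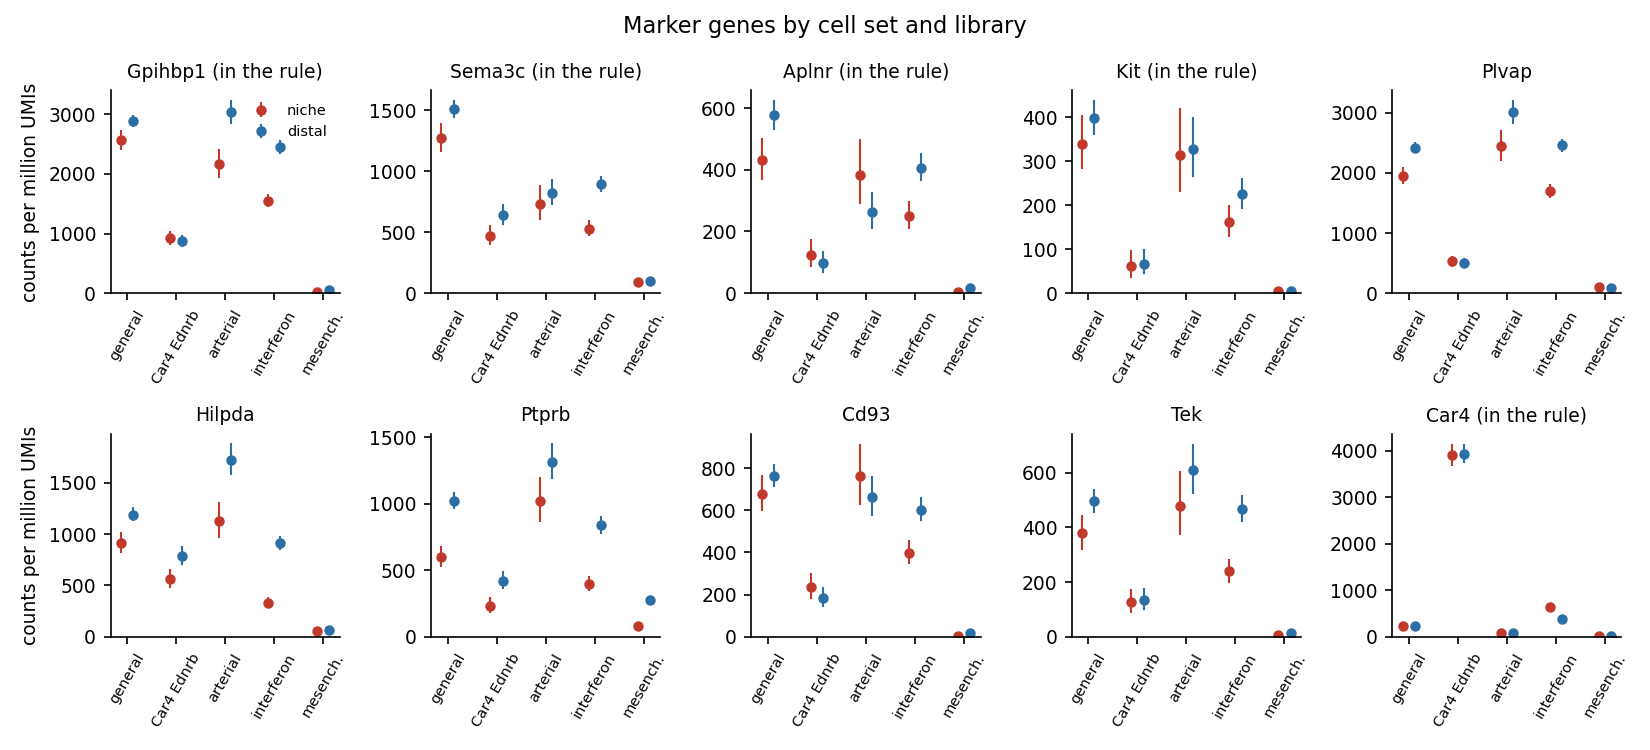
Levels of 10 marker genes (vertical axes, CPM from 0) in 4 endothelial cell sets and in mesenchymal cells, with niche in red and distal in blue. Points are levels over summed cells and bars are Poisson 95% intervals. Gpihbp1, Sema3c, Aplnr, Kit and Car4 are genes of the rule, so their panels are description only. In the panels of Plvap, Hilpda, Ptprb, Cd93 and Tek the general capillary cells stand above the Car4 Ednrb cells. Hilpda is highest in the arterial set (1131 and 1727).

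General capillary cells made up a smaller share of niche than of distal cells. They were 11.6% of kept niche cells (9.98 to 13.4) and 30.2% of kept distal cells (28.2 to 32.3). Mesenchymal cells took 55.5% and 18.7% of the kept cells, so the share among endothelial cells was also taken. There the members were 33% of 500 niche cells (28.9 to 37.3) and 45.7% of 1314 distal cells (42.9 to 48.4). The Car4 Ednrb cells were 20% of niche (16.6 to 23.8) and 11.3% of distal endothelial cells (9.67 to 13.2). How cells were assigned to the 2 fractions is not stated, and a difference in collection cannot be told apart from a difference in tissue. When every cell was thinned to 1200 UMIs before the rule was applied, the members' shares of the cells left were 15.8% and 32.7%. Cells below that depth were left out. At 1200 UMIs the fixed upper limits of the rule are easier to meet and its lower limits harder. The kept cells had a median of 2975 niche and 1975 distal UMIs, and the shares among endothelial cells are not given at equal depth.

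**Figure D2:**
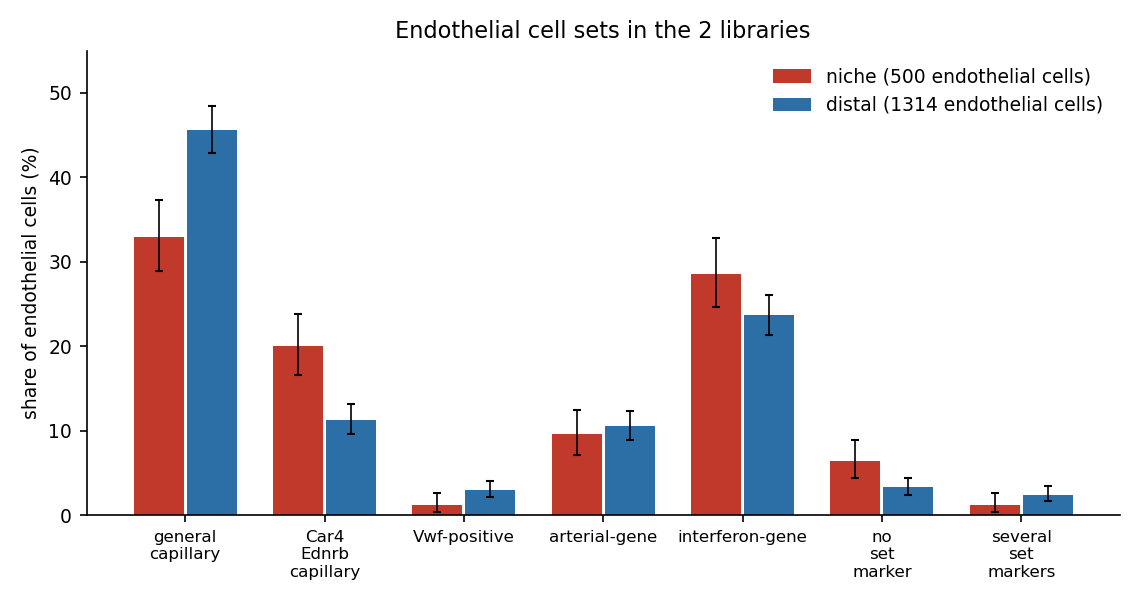
Share of endothelial cells (vertical axis, percent) in each set, with niche in red, distal in blue, and exact 95% binomial intervals. General capillary cells took 33% of niche and 45.7% of distal endothelial cells, and the intervals cover counting error in 1 library each.

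The members were set against the Car4 Ednrb capillary cells, of which the niche library held 100 and the distal library 149, in each library alone. The rule divides these sets by expression, so the ratios describe the sets and are not a test. A gene is called higher or lower here when the ratio is at least 2-fold and its interval leaves out equality. In the niche library 4.96% of 6648 measured genes were higher in general capillary cells and 5.9% lower, and in the distal library 5.76% of 8579 were higher and 5.43% lower. Of the 6610 genes measured in both libraries, 173 were higher in both, 218 lower in both, and 2 were called in opposite directions.

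The ligand genes Apln and Kitl were lower in general capillary than in Car4 Ednrb cells. Apln, the gene for apelin, had 2 UMIs in niche and 6 in distal members (5.52 and 6.02 CPM) and 95 and 108 in Car4 Ednrb cells (361 and 317), log2 ratios of -5.72 (-9.10 to -4.14) and -5.61 (-7.20 to -4.55). Its receptor gene Aplnr, which is in the rule, stood at 431 and 577 in members against 125 and 96.8. Kitl, which makes the ligand of KIT, stood at 77.3 and 85.2 in members and at 441 and 510 in Car4 Ednrb cells, log2 ratios of -2.49 and -2.58. Kit, also in the rule, stood at 340 and 398 against 60.8 and 67.4. The side of both receptor genes was fixed by the rule, and only the ligand genes were free of it.

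The VEGF receptor gene Kdr was lower in general capillary cells, at 202 and 256 CPM against 1246 and 1211 (log2 ratios -2.62 and -2.24), as was its co-receptor gene Nrp1 (-1.77 and -1.64). Tek (1.58 and 1.86), Vegfa (2.01 and 1.94) and Ptprb (1.36 and 1.27), a phosphatase that acts on TEK, were higher. Of 14 measured genes of VEGF and angiopoietin signalling outside the rule, 4 were higher and 4 lower in each library. The list medians were 0.18 and 0.63. Among all genes 4.96% were higher and 5.9% lower in the niche library, and 5.76% and 5.43% in the distal library.

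Some genes of vessel tone and clotting also differed. Edn1, the gene of the vasoconstrictor endothelin-1, had 318 UMIs in niche and 1096 in distal members (878 and 1099 CPM) against 78 and 71 in Car4 Ednrb cells (296 and 208), log2 ratios of 1.56 (1.21 to 1.94) and 2.39 (2.05 to 2.77). In the cells with arterial genes Edn1 stood at 898 and 1214 CPM, so it was not highest in the members. The endothelin receptor gene Ednrb, in the rule, had 0 UMIs in niche and 5 in distal members, against 197 and 247. Of 11 measured genes of haemostasis and vessel tone outside the rule, 2 were higher and 2 lower in the niche library. In the distal library 1 was higher and 2 lower. All genes gave 4.96% higher and 5.9% lower in the niche library, and 5.76% and 5.43% in the distal library.

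Several arterial genes and a few Notch genes were higher in general capillary cells, from which cells rich in Gja5, Efnb2, Esm1 and Cxcr4 had been left out. Cxcl12, a chemokine gene, had 144 and 376 UMIs in members (398 and 377 CPM) and 11 and 26 in Car4 Ednrb cells (41.8 and 76.2), log2 ratios of 3.19 (2.37 to 4.28) and 2.28 (1.73 to 2.94). In the cells with arterial genes Cxcl12 was higher than in the members, at 638 and 855 CPM. The Notch target Hey1 (2.01 and 2.56), the transcription factor gene Sox17 (1.85 and 1.72), the connexin gene Gja4 (1.83 and 2.37) and Sema3g (2.73 and 2.09) were higher in both libraries. Of 8 arterial genes outside the rule, 6 were higher for niche and 5 for distal cells, with medians of 1.84 and 1.91, and Mgp was lower in the distal library (-1.17). Of 11 Notch genes, 3 were higher in the niche library (Hey1, Notch4 and Nrarp) and 4 in the distal library, where Dll1 joined them, and none was lower. Over all 6588 measured genes outside the rule the medians were -0.01 and 0.01.

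Of 25 endothelial transcription factor genes, 5 were higher and 3 lower in the niche comparison (4.96% and 5.9% of all genes were). In the distal comparison 4 were higher and 3 lower (5.76% and 5.43% of all genes were). Tbx2 had 7 and 10 UMIs against 123 and 157 (-4.50 and -5.45), and Tbx3 stood at 144 and 205 CPM against 581 and 604 (-2.01 and -1.55). Emp2, Fibin, Chst1, Il1a, Clu, Alpl, Phlda1 and AW112010 were lower in both libraries, with log2 ratios of -6.28 to -3.58 among niche cells and -6.55 to -4.04 among distal cells. Adamtsl5 had 0 UMIs in niche members and 32 in niche Car4 Ednrb cells, at least 14.7-fold lower with 3 UMIs in place of the 0, and 5 against 33 in the distal library.

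Of 14 leukocyte adhesion genes, 6 were lower in general capillary cells in each library, and 2 were higher in niche and 3 in distal cells. The shares over all genes were 5.9% and 5.43% lower, and 4.96% and 5.76% higher. The genes lower in both were Icam1 (-1.95 and -1.34), Icam2 (-1.47 and -1.38), Cd34, Cd47, Ly6c1 and Ly6a. Ly6a, the gene of Sca-1 on the cell surface, stood at 2670 and 2366 CPM in members and at 10481 and 9388 in Car4 Ednrb cells. Of 27 immediate early and stress genes, 5 were lower in niche and 8 in distal cells and none higher. The small heat shock protein gene Hspb1 was lower in both (-2.67 and -2.69).

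Of 14 measured lipid handling genes outside the rule, 4 were higher and 1 lower in the niche library (4.96% and 5.9% of all genes were). In the distal library 3 were higher and 1 lower (5.76% and 5.43% of all genes were). The list medians were 0.28 and 0.46. Lpl, the lipase that GPIHBP1 holds on the vessel wall, stood at 149 and 184 CPM in members and at 57.0 and 29.3 in Car4 Ednrb cells (1.35 and 2.59). Fabp5, a fatty acid carrier gene, had 19 and 52 UMIs against 1 and 5, log2 ratios of 3.24 (1.13 to 9.16) and 1.71 (0.52 to 3.51). Mgll, which makes a monoglyceride lipase, was lower (-3.58 and -3.11). Cd36 stood at 2060 and 2230 against 1584 and 1777, less than 2-fold apart.

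**Figure D3:**
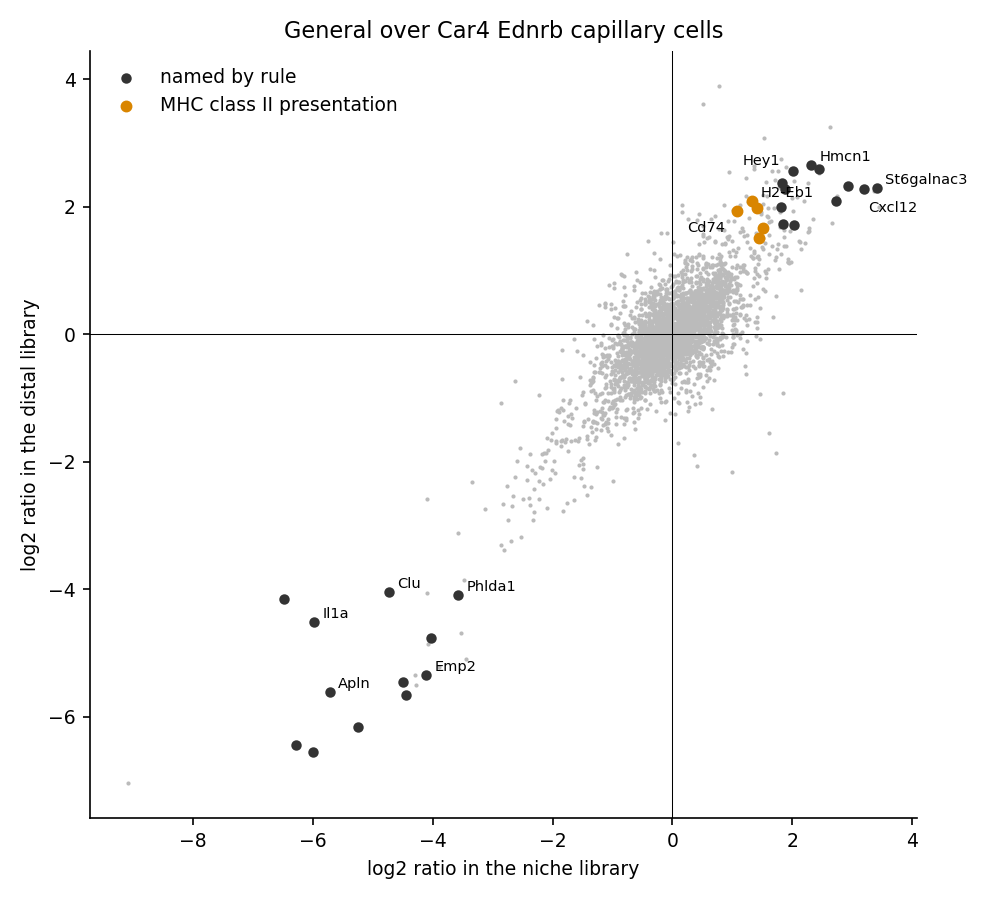
Log2 ratio of general over Car4 Ednrb capillary cells in the niche library (horizontal) and the distal library (vertical), for genes with at least 30 UMIs in each library. Genes named by rank are dark and MHC class II genes orange, and the named genes lie far out in the same direction on both axes, such as Cxcl12 at 3.19 and 2.28 and Emp2 at -4.11 and -5.34.

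MHC class II genes, which serve to present peptides to helper T cells, were higher in general capillary cells than in Car4 Ednrb cells. Their promoters carry a known set of elements, among them the Y box, and the RefSeq promoter table (GRCm38.p6) held 6 of the 9 genes on the list. The Y box was searched as CTGATTGG on both strands in the 250 bases before each start site, a word that overlaps the general CCAAT box on the other strand. H2-Aa and H2-Eb1 held it, as did 1258 of 32851 promoters of that length (3.83%). A match is a description and not a binding site. Both are shown 5′ to 3′ along the gene, with the match in capitals, because these genes differed between the capillary sets. H2-Aa lies at chr17:34287824-34288073 on the minus strand, with the match 51 to 44 bases before the start site, and H2-Eb1 at chr17:34305617-34305866 on the plus strand, with the match 62 to 55 bases before it.
H2-Aa: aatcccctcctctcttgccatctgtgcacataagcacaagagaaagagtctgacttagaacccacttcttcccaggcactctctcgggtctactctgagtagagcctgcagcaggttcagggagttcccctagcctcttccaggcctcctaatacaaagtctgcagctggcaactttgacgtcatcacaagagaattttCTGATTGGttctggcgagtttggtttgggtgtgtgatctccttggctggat
H2-Eb1: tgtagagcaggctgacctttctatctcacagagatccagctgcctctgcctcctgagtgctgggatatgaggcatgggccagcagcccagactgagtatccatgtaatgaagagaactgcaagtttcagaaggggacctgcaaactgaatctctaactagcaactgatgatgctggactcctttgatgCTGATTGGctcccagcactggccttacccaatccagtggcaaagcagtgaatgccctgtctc

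Cd74, the invariant chain that guides MHC class II molecules, had 792 UMIs in niche and 2085 in distal members (2187 and 2091 CPM), against 273 and 187 in Car4 Ednrb cells (1037 and 548), log2 ratios of 1.07 (0.88 to 1.28) and 1.93 (1.71 to 2.15). H2-Aa stood at 409 and 355 CPM against 148 and 123 (1.45 and 1.51), and H2-Eb1 at 367 and 379 against 144 and 88.0 (1.33 and 2.09). H2-Ab1 (1.51 and 1.66) and H2-DMb1 (1.41 and 1.98) were higher in both libraries. In all, 5 of 6 measured genes were higher in the niche library and 6 of 6 in the distal library, against 4.96% and 5.76% of all genes. H2-DMa was at 0.45 (-0.59 to 1.62) in the niche.

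The medians of these MHC class II ratios were 1.37 and 1.80, and the MHC class I medians were -0.02 and 0.03 with none of 20 genes called in either library. Over the class II genes measured in each library alone the medians were 1.37 and 1.66, and after both sets were thinned to 1200 UMIs they were 0.84 and 1.52. With Car4 Ednrb cells held to at least 5 UMIs of those genes they were 2.20 and 2.89. Cd74 in mesenchymal cells of the same libraries was at 554 and 131 CPM. It was higher than in the members in cells with interferon-induced genes (5767 and 4576) and in Sftpc-high cells (11880 and 7732), so it was not highest in the members. Between the libraries the members differed little, with none of 6 genes called and a niche over distal median of -0.04. The interferon clause had left out cells in which most of these genes were higher. With that clause dropped, the niche over distal median of 7 class II genes was 0.27, against -0.05 over all genes, and none was called.

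The niche and distal members were alike for most genes. Of 8550 measured genes, 123 were at least 2-fold higher in the niche members (1.44%) and 149 lower (1.74%), and the median log2 ratio was -0.02. Scaling without mitochondrial and ribosomal genes gave 144 higher and 117 lower, and leaving out the cell with the most UMIs of each gene in each library gave 69 and 265. Among the 2351 genes with at least 100 UMIs, 2320 (98.7%) lay within 2-fold. None of the 9 capillary markers outside the rule was called, and 8 of their ratios were negative with a median of -0.38. Ptprb, at 599 and 1025 CPM, was at -0.77 (-0.99 to -0.56).

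Several of the genes highest in niche members were abundant in mesenchymal cells or came from few cells. Mgp, which makes a matrix protein, had 160 UMIs in 87 niche members and 47 in 43 distal members, a log2 ratio of 3.22 (2.75 to 3.73), and stood at 442 and 47.1 CPM. In mesenchymal cells it stood at 12152 and 5738. Serping1 (2.62), Mt2 (2.59), Rarres2 (2.03) and Gpx3 (1.98) were higher in niche members, and stood at 2446, 3199, 2394 and 2923 CPM in the niche mesenchymal cells. Mgp and Mt2 were also higher in niche Car4 Ednrb cells (1.38 and 2.33) and niche cells with interferon-induced genes (1.58 and 2.86). Serping1, Rarres2 and Gpx3 were higher in the latter (2.24, 2.49 and 3.13) and not called in Car4 Ednrb cells (0.37, -0.23 and 0.18). The summed fibroblast marker level in the members was 820 CPM in the niche library (all 13 genes with a UMI, most from Mgp) and 232 in the distal library (all 13), which was 2.81% and 0.741% of the level in mesenchymal cells. A UMI of the mesenchymal genes of the rule was present in 59 niche members (35.8%) and 100 distal members (16.7%). These shares were not taken at equal depth, and the members had a median of 1996 niche and 1431 distal UMIs. Without those cells Mgp was at 3.11. The part of mesenchymal RNA in these ratios was not tested.

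A few single cells carried many of the UMIs of other genes. Lgals1 had 141 UMIs in niche members, 88 of them in 1 cell, and 22 in distal members (4.11, and 2.78 without the cell with the most UMIs in each library). Fabp4 had 49 UMIs in 4 niche members, 43 of them in 1 cell, and 3 in distal members, a log2 ratio of 5.28 (3.86 to 7.82), and it turned to -3.95 when cells were thinned before the rule. Ccl21a, a chemokine gene of lymphatic vessels, had 1011 UMIs in the niche, 1000 of them in 4 cells, and 272 in the distal library, 256 of them in 2 cells. Those 4 niche cells held all 8 UMIs of the lymphatic regulator Prox1, 26 of 27 of Mmrn1 and 6 of 929 of Gpihbp1. The rule thus let in a few cells with lymphatic genes. One niche member had 78.4% haemoglobin UMIs.

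Alveolar type 2 transcripts went in the other direction. The 15 genes of the list summed to 547 CPM in niche members (13 with a UMI) and 2785 in distal members (all 15), most from Sftpc. Of 13 measured, 10 were lower in the niche (1.74% of all genes were), with a median of -1.85. Of the 198 niche UMIs, 116 were in 1 cell. Without the member with the most such UMIs in each library, a choice made after seeing the data, the levels were 228 and 2776 CPM, 10 of 13 were lower and the median was -3.48. Sftpc is in the rule, and 9 of the other 12 were lower. Lyz1 had 2 UMIs in niche and 103 in distal members, a log2 ratio of -3.91 (-7.29 to -2.34), and Sftpb had 7 and 92 (-2.16). Sftpc-high cells were 1.12% of the niche and 10.8% of the distal library. The part of their RNA in these ratios was not tested.

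Other genes low in niche members had few UMIs. Ccdc130 had 0 UMIs in niche members and 30 in 30 distal members, at least 3.63-fold lower with 3 UMIs in place of the 0. Tdrp had 2 and 37 UMIs, a log2 ratio of -2.45 (-5.85 to -0.79), and Ano6, which makes a lipid scramblase, had 7 and 83 (-2.02). Hspa1a, an inducible chaperone gene, had 22 UMIs in 13 niche cells and 160 in 51 distal cells (-1.37), and Bhlhe40, a transcriptional repressor gene, 11 and 90 (-1.52). The ratio of Hspa1a was -0.91 after members were thinned to 1200 UMIs, and -0.36 when every cell was thinned before the rule. Over all alternatives the ratios nearest 0 were -0.84 for Ano6, -0.96 for Tdrp and -0.66 for Bhlhe40, all less than 2-fold. For Ccdc130 it was -1.28.

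**Figure D4:**
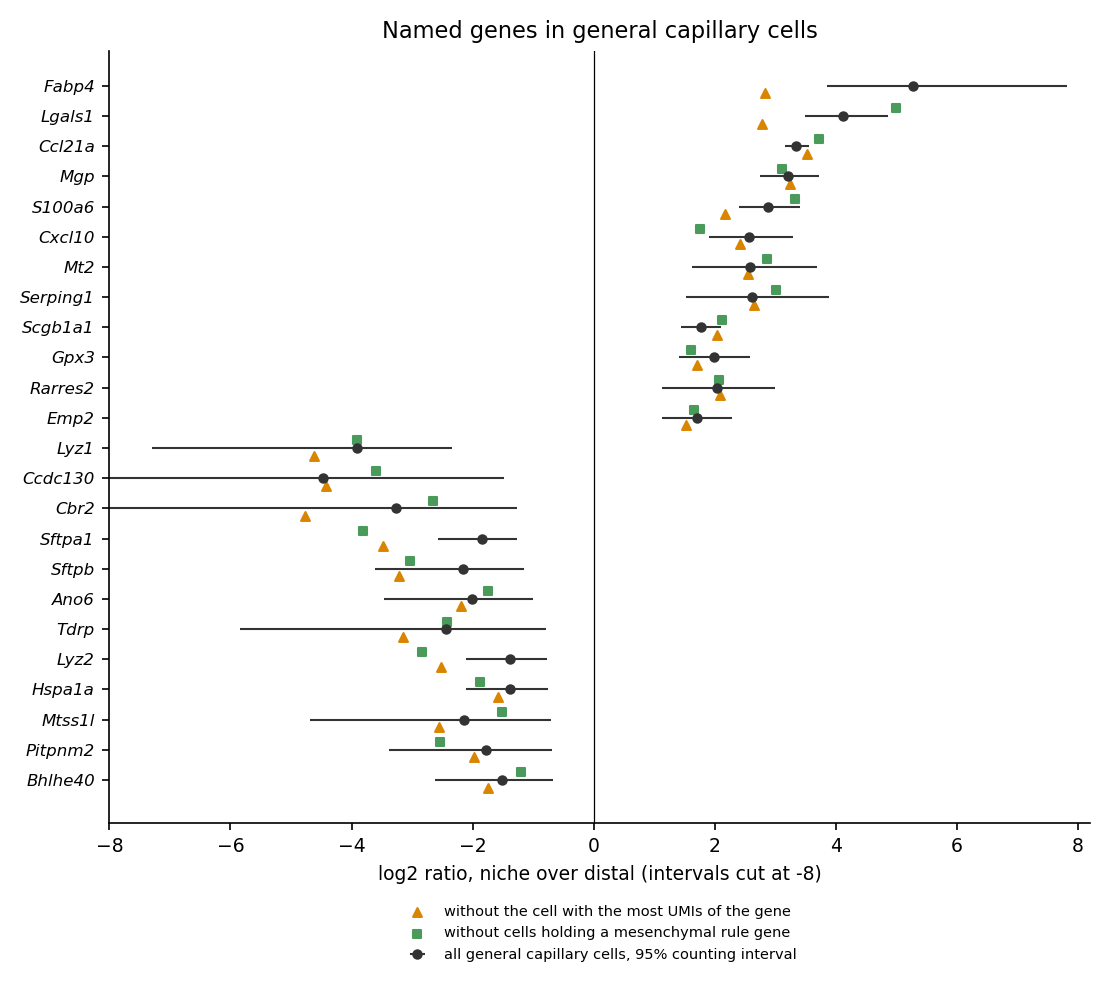
Log2 ratio of niche over distal members (horizontal) for the 24 genes ranked highest and lowest. Circles with bars are the values with exact 95% intervals, triangles leave out the cell with the most UMIs in each library, and squares leave out members with a UMI of a mesenchymal rule gene. Without the top cell Fabp4 goes from 5.28 to 2.84, Lgals1 from 4.11 to 2.78, Sftpa1 from -1.85 to -3.47 and Cbr2 from -3.26 to -4.77.

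Interferon genes are the group most touched by the rule, which left out cells with 3 or more UMIs of Serpina3f, Serpina3g, Il18bp and Ubd. Many interferon-stimulated genes carry an interferon-stimulated response element (ISRE), and it was searched as GAAA, any 2 bases and GAAA again, on both strands of the same 250 bases. Among the 38 interferon genes with a promoter entry, 21 held a match in at least 1 entry. Counted per entry and not per gene, 978 of all 32851 promoters held one (2.98%), so the shares are not in the same unit. The promoters of Ifit1 and Cxcl10 are shown because both genes were called between the libraries. Ifit1 lies at chr19:34640639-34640888 on the plus strand with 2 matches, both on the other strand, the first 104 to 95 bases before the start site, and Cxcl10 at chr5:92348890-92349139 on the minus strand with 1, 213 to 204 bases before it. Capitals mark the matches.
Ifit1: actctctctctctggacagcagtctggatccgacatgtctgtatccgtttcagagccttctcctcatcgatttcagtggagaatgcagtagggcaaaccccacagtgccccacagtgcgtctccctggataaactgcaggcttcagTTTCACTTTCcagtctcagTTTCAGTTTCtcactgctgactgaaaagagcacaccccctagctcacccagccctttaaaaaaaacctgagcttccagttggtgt
Cxcl10: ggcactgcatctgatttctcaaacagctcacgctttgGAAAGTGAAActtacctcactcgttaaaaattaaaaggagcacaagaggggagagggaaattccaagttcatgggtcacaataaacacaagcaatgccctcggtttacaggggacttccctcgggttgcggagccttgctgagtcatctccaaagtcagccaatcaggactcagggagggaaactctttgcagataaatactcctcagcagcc

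Within the members 4 of 49 interferon genes were higher in the niche and none lower, against 1.44% and 1.74% of all genes. The list median was -0.02. Cxcl10, a chemokine gene that draws activated T cells, had 59 UMIs in 29 niche members and 27 in 19 distal members (163 and 27.1 CPM), a log2 ratio of 2.57 (1.91 to 3.30). Cxcl9 had 22 UMIs in 19 niche members and 3 in 2 distal members, a log2 ratio of 4.15 (2.60 to 6.72). Both genes stood far higher in niche mesenchymal cells, Cxcl10 at 4194 and Cxcl9 at 1505 CPM, than in distal ones (134 and 3.37). Cxcl10 also had 26 UMIs in niche and 0 in distal Car4 Ednrb cells, and was at 1.52 in cells with interferon-induced genes.

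At 1200 UMIs per cell Cxcl10 was seen in 12.1% of niche members (7.56 to 18.1) and 2.22% of distal members (1.02 to 4.18), and in 44.7% and 5.93% of mesenchymal cells. The unthinned shares were 17.6% and 3.17% in members (median depth 1996 and 1431 UMIs) and 56.5% and 8.87% in mesenchymal cells (3565.5 and 2147). A share in the members that lies below that of mesenchymal cells is not read as expression by the members. Ifit1, an antiviral gene, had 66 and 81 UMIs (1.17), and Gbp9, a guanylate-binding protein gene, had 34 and 44 (1.09). Their ratios were 0.61 and 0.38 in members with no mesenchymal UMI. The most abundant gene of the list, Ifitm3, stood at 5569 and 5525 CPM.

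Dropping the interferon clause added 74 niche and 211 distal cells, which were 31.0% of 239 niche cells (25.2 to 37.2) and 26.0% of 811 distal cells (23.03 to 29.18) that met the rest of the rule. The added cells had a median of 2649 and 1986 UMIs, against 1996 and 1431 in members. The clause is a fixed number of UMIs, and these shares were not taken at equal depth. Against the members of the same library, 31 of 50 interferon genes were higher in the added niche cells and 33 of 50 in the added distal cells, with medians of 1.55 and 1.34. Over all genes 2.86% were higher and 2.62% lower in the added niche cells, and 1.52% higher and 1.54% lower in the added distal cells, and the clause itself chose these cells. MHC class II genes went with them, 6 of 6 higher in the niche and 5 of 7 in the distal library (medians 1.47 and 1.12).

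With the added cells counted as members, the niche over distal median of 50 interferon genes was 0.27 against -0.05 over all genes, and 4 genes were higher in the niche and none lower (1.61% and 1.64% of all genes were). These were Cxcl9 (2.66), Ido1 (1.31), Cxcl10 (1.23) and Cd274 (1.03), which encodes the checkpoint ligand PD-L1. Ubd, a clause gene, had 131 and 49 UMIs (2.74, 2.27 to 3.25). The interferon comparison of the members therefore covers only the capillary cells low in these genes.

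Of 15 acute phase and complement genes, 7 were higher in niche members and none lower (1.44% and 1.74% of all genes were), with a median of 1.12. The median was 0.19 without members holding a mesenchymal UMI, 0.39 without the Ccl21a-rich and haemoglobin-rich cells, and at most 1.52 over the alternatives. They were Mt1, Mt2, Lcn2, C3, Serping1, Serpina3n and Timp1. Each was thinly covered, with at most 47 UMIs in a library, and C3 had 15 and 7 (2.51, 1.18 to 4.10, and 0.87, no longer called, when every cell was thinned before the rule). Lcn2 had 18 and 14 UMIs, with 8 of the niche UMIs in 1 cell. Socs3 and Nfkbia, with 418 and 367 niche UMIs, stood at -0.08 and -0.32. Of 14 chemokine and cytokine genes, 5 were higher in the niche (Ccl2, Ccl21a, Cxcl1, Cxcl9 and Cxcl10), none lower, and the median was 0.03. Ccl2, a monocyte chemokine gene, had 23 and 6 UMIs (3.32), with 10 of the niche UMIs in 1 cell. It was at 1.59, no longer called, without members holding a mesenchymal UMI. Niche mesenchymal cells stood at 2062 CPM for Ccl2 and 1286 for Cxcl1.

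Genes of vessel growth were mostly within 2-fold between the libraries. Of 18 VEGF and angiopoietin genes, 2 were higher in the niche members and 1 lower, against 1.44% and 1.74% of all genes. Pgf and Nrp2 were the higher genes and Vegfa the lower. Pgf, placental growth factor, had 13 UMIs in 8 niche members and 0 in distal members, at least 11.9-fold higher with 3 UMIs in place of the 0. Nrp2 had 20 and 16 UMIs, 17 and 5 of them in the Ccl21a-rich cells, and its ratio of 1.77 went to -0.20 without those cells and the haemoglobin-rich cell. Vegfa had 30 and 173 UMIs, a log2 ratio of -1.05 (-1.68 to -0.50), which was -0.64 among cells with at least 1000 genes. None of 11 Notch genes was called, with a median of -0.40, and none of 17 BMP and TGF-beta genes, with a median of -0.24.

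Adhesion, lipid, junction and energy genes were nearly level, and 1.44% of all genes were higher and 1.74% lower in the niche. Icam1, which binds leukocyte integrins, had 47 and 262 UMIs and was the 1 called gene of 15 adhesion genes, at -1.01 (-1.50 to -0.57), and at -0.74 with the interferon clause dropped. Of 18 lipid handling genes, Fabp4 alone was called. Gpihbp1 (-0.17), Cd36 (-0.11), Lpl (-0.30) and Hilpda (-0.38) lay within 2-fold. None of 17 junction genes, 21 MHC class I genes or 41 respiratory chain genes was called, with medians of -0.16, -0.14 and 0.11. Among the 28 immediate early and dissociation genes Myc was higher (7 and 4 UMIs) and Hspa1a lower, with a median of -0.10. Of 15 cell cycle genes Cks2 was higher (12 and 4 UMIs), with 9 of its niche UMIs in 1 cell.

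**Figure D5:**
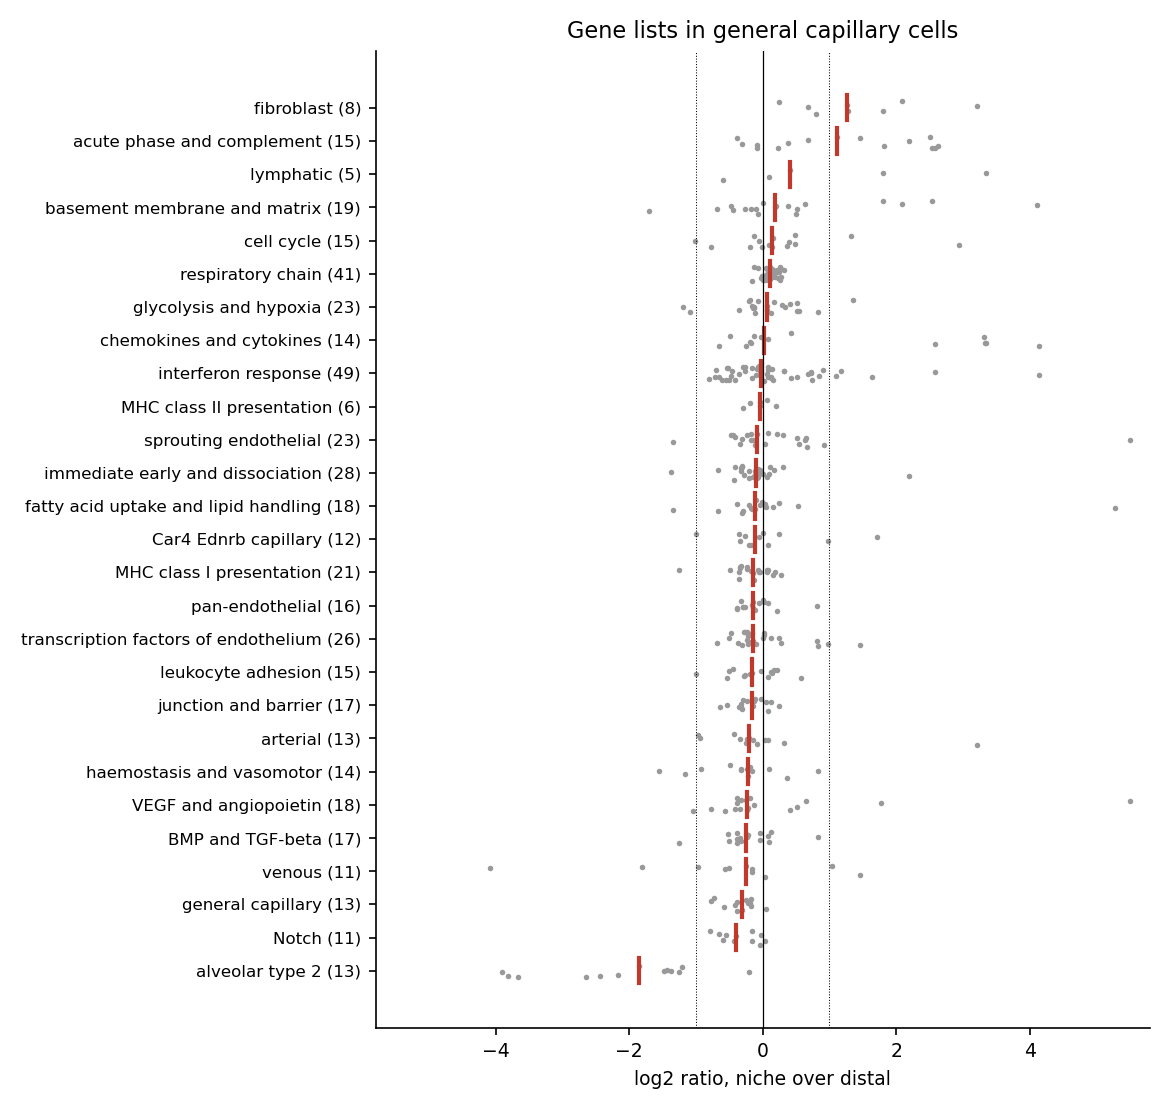
Log2 ratio of niche over distal members (horizontal) for the measured genes of each list (grey points, clipped at 5.5) with the list median as a red bar and the number of genes in parentheses. Genes of the rule are included, among them 4 of the 8 fibroblast genes. The fibroblast (1.27) and acute phase (1.12) medians lie highest, the alveolar type 2 list lowest (-1.85), and most lists of endothelial functions lie near 0.

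Within each library the members varied most in few genes. At 1200 UMIs per cell, which left out 195 distal members and no niche member, 1664 genes were common enough to rank by the variance over the mean of their UMIs across cells. Ccl21a, Malat1, Actb, Scgb3a1 and Cd74 had the largest values when the lower of the 2 libraries was taken, against medians over genes of 1.02 and 1.04. Cd74 was at 5.74 and 6.83. It was present in 57.0% of niche members (49.0 to 64.6) and 56.0% of distal members (51.1 to 60.9), with up to 25 and 26 UMIs in a cell, and in 16.3% and 10.7% of mesenchymal cells. The unthinned shares were 67.9% and 62.5% in members and 25.9% and 20.2% in mesenchymal cells.

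The MHC class II genes together gave a median of 3 UMIs per niche member (0 to 35) and 2 per distal member (0 to 42), and 25.5% and 24.0% of members had none. The members were thus uneven in these genes to a like degree in both libraries. Fos, Klf2 and Ier3 also ranked among the most variable genes. Hilpda was seen in 53.3% of niche members (45.4 to 61.1) and 60.2% of distal members (55.3 to 65.0) at this depth, and in 4.18% and 5.93% of mesenchymal cells (66.7% and 65.5%, and 12.2% and 10.5%, unthinned). Edn1 was seen in 43.0% and 46.2% of members and in 0.380% and 1.78% of mesenchymal cells (52.7% and 51.3%, and 1.27% and 2.42%, unthinned).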

How the data were processed

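The authors deposited 1 table of raw UMI counts per library, with no normalization in the values. Chromium Single Cell 3′ reagents and a HiSeq4000 were used, per the labels' protocols. The notes name R 3.4.1, mm10 and Cell Ranger 2.1.1, per the submitters' processing notes, and the annotation and gene filter are not given in the sources used here. The tables list 10791 niche and 10814 distal genes, so absence from a list cannot be read as 0, and ratios cover the 10198 genes in both.

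The rule was applied to each of the 1423 and 1987 kept cells, which left out 50 niche and 9 distal barcodes. Counts were summed over members per library and scaled to the summed UMIs of the common genes. Log2 ratios have 0.5 UMI added to each sum, with exact conditional binomial 95% intervals without it, for genes with at least 10 UMIs over both sums. Shares have Clopper-Pearson intervals, and levels have Poisson intervals. Against a sum of 0 a fold used 3 UMIs over the group. Mesenchymal cells held at least 3 UMIs of the mesenchymal rule genes and more of these than of endothelial genes. Sftpc-high cells had at least 5% Sftpc.

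Named genes were the 12 highest and 12 lowest in each comparison ranked on whichever interval bound lay closer to 0, with 30 or more UMIs, without mitochondrial, ribosomal, haemoglobin, unnamed and rule genes, and up to 4 members of each of 33 gene lists with the bounds farthest from 0. Lists were described by counts and medians with at least 5 measured genes. Other list members, Ubd, Hbb-bs and the lymphatic genes were named after their values were seen. The members and lists were chosen with earlier results of these data known. Doublets were called with Scrublet (10 niche and 27 distal cells, 2 and 2 of them members) and kept. Calculations used Python 3.11.15, numpy 2.4.6, scipy 1.17.1, pandas 2.3.3 and scanpy 1.11.5, and were tested on simulated counts. Alternatives were other rule limits, filters, depths, scalings and minimum counts, and others that left out doubtful cells or rule genes, added after seeing the data. One gene is not reported here.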

Additional observations from a re-analysis of the deposited data

Results flagged for a closer look

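The genes Gsn, Cebpb and Inmt were at least 2-fold higher in niche than in distal general capillary cells and at least 2-fold lower in niche than in distal Car4 Ednrb capillary cells, with intervals that left out equality in both. The log2 ratios in general capillary cells were 1.04 (0.53 to 1.53) for Gsn, 1.11 (0.53 to 1.68) for Cebpb and 1.26 (0.69 to 1.81) for Inmt, and those in Car4 Ednrb cells were -2.12, -1.29 and -2.34. The difference between the sets was not tested, since each rests on 1 library per group. Gsn had 61 and 82 UMIs in the members, Cebpb 47 and 60, and Inmt 52 and 60, with 11, 11 and 16 of the niche UMIs in 1 cell. Without the cell with the most UMIs in each library the ratios were 0.84, 0.96 and 0.91. Niche mesenchymal cells held 7242 CPM of Gsn and 2497 of Inmt, and the part of their RNA was not tested.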

How the results depend on the processing

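No paired analysis was possible because each group has 1 library, and no replicate could be left out. The share of general capillary cells among kept cells was 16.8% in niche and 40.8% in distal cells with the interferon clause dropped. Thinning to 1200 UMIs before the rule, without the cells below that depth, gave 15.8% and 32.7%. With at least 1000 genes per cell the distal share was 20.2%. Without members holding a UMI of a mesenchymal rule gene, an alternative chosen after seeing the data, the shares were 7.45% and 25.2%. Higher genes in niche members numbered 56 with at least 30 UMIs per gene. They numbered 69, with 265 lower, without the cell with the most UMIs of each gene, also chosen after seeing the data, which takes 1 of 165 niche and 1 of 600 distal cells. Scaling without mitochondrial and ribosomal genes gave 144 higher and 117 lower. The lymphatic median went from 0.41 to 1.27 with a marker sum of at least 1 and to 1.23 with at least 1000 genes. Against Car4 Ednrb cells, thinning gave 193 higher genes in niche and 320 in distal cells and an MHC class II median of 0.84 in the niche. At least 5 UMIs of Car4 and Ednrb gave medians of 2.20 and 2.89, and at least 30 UMIs per gene gave 211 higher and 239 lower genes in the niche. Hilpda shares were 42.4% and 51.2% at 800 UMIs and 70.4% and 68.4% at 2000, and the niche Cxcl10 share was 18.5% at 2000. Fabp4 (-3.95) and Nrp2 (-1.55) reversed after thinning before the rule, and Nrp2 (-0.20) without the Ccl21a-rich and haemoglobin-rich cells, an alternative added after seeing the data. The cause of these changes was not tested. Over all alternatives, 510 recomputed main values met a loose limit of closeness and 24 did not. A share had to stay inside its interval, and a gene count within a fixed fold. A list median had to stay inside the median bounds of its genes' intervals, which are wide. The acute phase median thus counted as close at 0.19 against 1.12, and the alveolar type 2 median at -3.47 against -1.85. Of the recomputed values of single genes, 1593 were close or on the same side of the threshold, 60 no longer passed it, 3 newly passed it, 40 moved and 3 reversed. Depth limits genes with few UMIs, whose intervals span several fold.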

Other observations

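Scgb3a1, which encodes a secretoglobin known from airway epithelium, was found in endothelial cells in both libraries. Its level was 99.4 CPM in niche general capillary cells and 139 in distal ones, in 14 of 165 and 42 of 600 cells, against 11.4 and 26.4 in Car4 Ednrb cells, log2 ratios of 2.92 (1.46 to 5.47) and 2.33 (1.43 to 3.56). Levels in the cells with arterial genes were 713 and 545 CPM, in 17 of 48 and 26 of 139 cells. Mesenchymal cells stood at 6.47 and 6.74, and Sftpc-high cells at 0 and 1.85. At 1200 UMIs the transcript was seen in 10 niche and 19 distal general capillary cells, with up to 11 UMIs in a cell in each library. Scgb1a1, another secretoglobin gene, was instead spread over cell sets, at 467 CPM in niche members, 410 in niche Car4 Ednrb cells and 796 in niche mesenchymal cells, and at 136, 88.0 and 125 in the distal library.

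Sparc and Mmrn2, genes of the vessel matrix, were higher in general than in Car4 Ednrb cells in both libraries (1.53 and 1.62 for Sparc, 2.08 and 2.15 for Mmrn2), and the protease inhibitor genes Timp2 (-1.42 and -1.64) and Timp3 (-1.96 and -2.17) were lower. Of 17 basement membrane and matrix genes, 4 were higher in each library, and 5 were lower in niche and 4 in distal cells. The shares over all genes were 4.96% and 5.76% higher, and 5.9% and 5.43% lower.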
